A study of Mus musculus with 6 samples.

Results

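The 9 genes described here are the Hedgehog receptor Ptch1, the decoy receptor Hhip, the signal transducer Smo, the co-receptors Boc, Cdon and Gas1, and the transcription factors Gli1, Gli2 and Gli3. They were taken by symbol from a table of 54532 genes, and each of the 9 symbols matched a single mouse Ensembl identifier. RNA came from liver cells positive for eYFP, sorted from CD-1 embryos of genotype Sm22-Cre/ROSA26RYFP at embryonic day 16 (E16, 3 libraries) and embryonic day 18 (E18, 3 libraries). Both days share that genotype, and the libraries of each day carry the letters A, B and C. Cre was driven by the Sm22 (Tagln) promoter, so the reporter marks cells that expressed Sm22 at some time as well as cells that still do. The labels do not say how many embryos or litters made a library, and the p-values below therefore reflect only the scatter among these 6 libraries, part of which may be technical.

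Hedgehog ligands bind Ptch1, which otherwise holds Smo inactive, and the cell-surface proteins Boc, Cdon and Gas1 help the ligand reach Ptch1. Active Smo works at the primary cilium, where it turns Gli2 and Gli3 away from being processed into repressors. Gli2 is known mainly as an activator, Gli3 mainly as a repressor, and Gli1 as an activator that is itself induced. Ptch1, Gli1 and Hhip are transcribed in response to the signal, and Ptch1 and Hhip then dampen it. In liver, stellate cells and portal fibroblasts are among the cells known to respond to Hedgehog ligands.

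The sequences just upstream of 3 of these genes are shown because they span the patterns described: Smo overlapped between the days, Gli2 rose, and Hhip is a classical target. Each line is 250 bases of GRCm38.p6 ending just before the start site that RefSeq gives, read 5′ to 3′ on the gene's strand. Smo is at chr6:29735247-29735496 on the plus strand, Gli2 at chr1:119053620-119053869 on the minus strand and Hhip at chr8:80058009-80058258 on the minus strand.
Smo: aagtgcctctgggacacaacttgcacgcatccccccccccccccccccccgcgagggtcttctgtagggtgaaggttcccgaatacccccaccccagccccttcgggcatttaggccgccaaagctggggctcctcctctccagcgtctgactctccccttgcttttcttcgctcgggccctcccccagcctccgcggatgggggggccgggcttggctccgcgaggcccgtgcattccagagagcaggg
Gli2: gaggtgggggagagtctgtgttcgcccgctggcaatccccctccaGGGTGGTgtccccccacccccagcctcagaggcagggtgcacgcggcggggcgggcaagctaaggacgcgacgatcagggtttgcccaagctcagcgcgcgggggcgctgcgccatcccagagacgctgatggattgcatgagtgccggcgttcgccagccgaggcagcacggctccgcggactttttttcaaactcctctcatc
Hhip: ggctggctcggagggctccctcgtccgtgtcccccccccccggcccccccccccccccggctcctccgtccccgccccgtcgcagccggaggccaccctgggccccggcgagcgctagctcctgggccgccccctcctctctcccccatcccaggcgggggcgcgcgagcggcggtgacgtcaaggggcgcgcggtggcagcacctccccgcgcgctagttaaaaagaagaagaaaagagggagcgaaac

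Capitals mark the 7-letter core ACCACCC of the GLI binding motif, or its reverse complement GGGTGGT. RefSeq windows of 300 bases, from 250 before to 50 after the start, were at hand for 7 of the 9 genes, and not for Boc and Gli1. Those of Ptch1, Gli3 and Cdon lie inside the GENCODE models of these genes, so bases upstream of these models were not searched. The core, searched on both strands, was in the window of Gli2, 205 bases before the start, and in none of the other 6. It is in 4.61% of 32851 such windows. The 9-letter consensus GACCACCCA (reverse TGGGTGGTC), which contains the core, was in 0.253% of the windows and in none of these 7. A match is a description of letters, not a binding site, and the windows without one leave the factors' binding undescribed.

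Levels are given as TPM, the authors' unit, in which reads are divided by gene length and scaled to a fixed sum per library. Read totals recovered from the TPM values were 21130198 to 22626885 at E16 and 14587545 to 18281942 at E18. Where 3 library values are listed for a day, they stand in the order A, B, C. The single gene Gm26917 took 19.8% to 33.9% of TPM per library. The 10 mesenchymal markers summed to 312, 367 and 614 TPM at E16 and 2080, 4517 and 1708 TPM at E18; 8 of the 10 were called higher at E18. Tagln, whose promoter drove the Cre, was at 0.606 to 1.4 TPM at E16 and 2.86 to 3.37 TPM at E18, with opposite-strand exons over 67.9% of its own. Markers of other cell types were present: those of hepatocytes summed to 2076 to 8734 TPM at E16 and 373 to 976 TPM at E18, with 5 of 10 called lower. Erythroid markers summed to 5443 to 7294 TPM and 11011 to 18970 TPM, with 2 of 11 called higher. Of these 11, Klf1 and Gata1 overlapped between the days, and Epor was lower in every E18 library but not called. The others were higher in every E18 library. Endothelial markers stayed under the filter with 0 of 6 tested, and of 6 leukocyte markers Adgre1 and Itgam were at 0 and Ptprc at 0 to 0.143 TPM, while Cd68 was at 34.6 to 108 TPM and Lyz2 rose from 0.445 to 1.88 TPM to 4.82 to 8.53 TPM (limma adjusted p = 0.0444). Lyz2 and 2 of the called mesenchymal markers passed the filter (1 TPM in 3 libraries) only with their E18 values. Those 2 were Thy1 (0, 0.251 and 1.39 TPM at E16) and Des (1.52, 0.481 and 5.1 TPM at E16). In such bulk samples, fewer cells of a type and less RNA per cell cannot be told apart.

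Setting E18 against E16 asks which of the 9 transcripts differ between these stages of the sorted cells. Boc, Gas1 and Gli2 rose. Cdon, Gli3, Gli1 and Hhip had higher values in every E18 library than in any E16 library but did not pass the test, and Ptch1 and Smo overlapped between the days. Of the 9 genes 3 were called higher, against 3.08% of the 17824 genes tested, and none was called lower, against 0.387%; calls in either direction made up 3.47% of genes. All E18 values lay above all E16 values for 7 of the 9, against 18.4% of genes tested, and below them for none, against 8.05%. The median difference over the 9 genes was 1.53 on the log2(TPM + 1) scale, against 0.07 over all genes. Calls are at limma adjusted p under 0.05 on log2(TPM + 1), a scale that understates changes of low genes. Gli2 and Gli3 reached 1 TPM in only 1 of 3 E16 libraries, so they passed the filter (1 TPM in 3 libraries) through E18, and the counts and the median over the 9 are a description only.

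**Figure D1:**
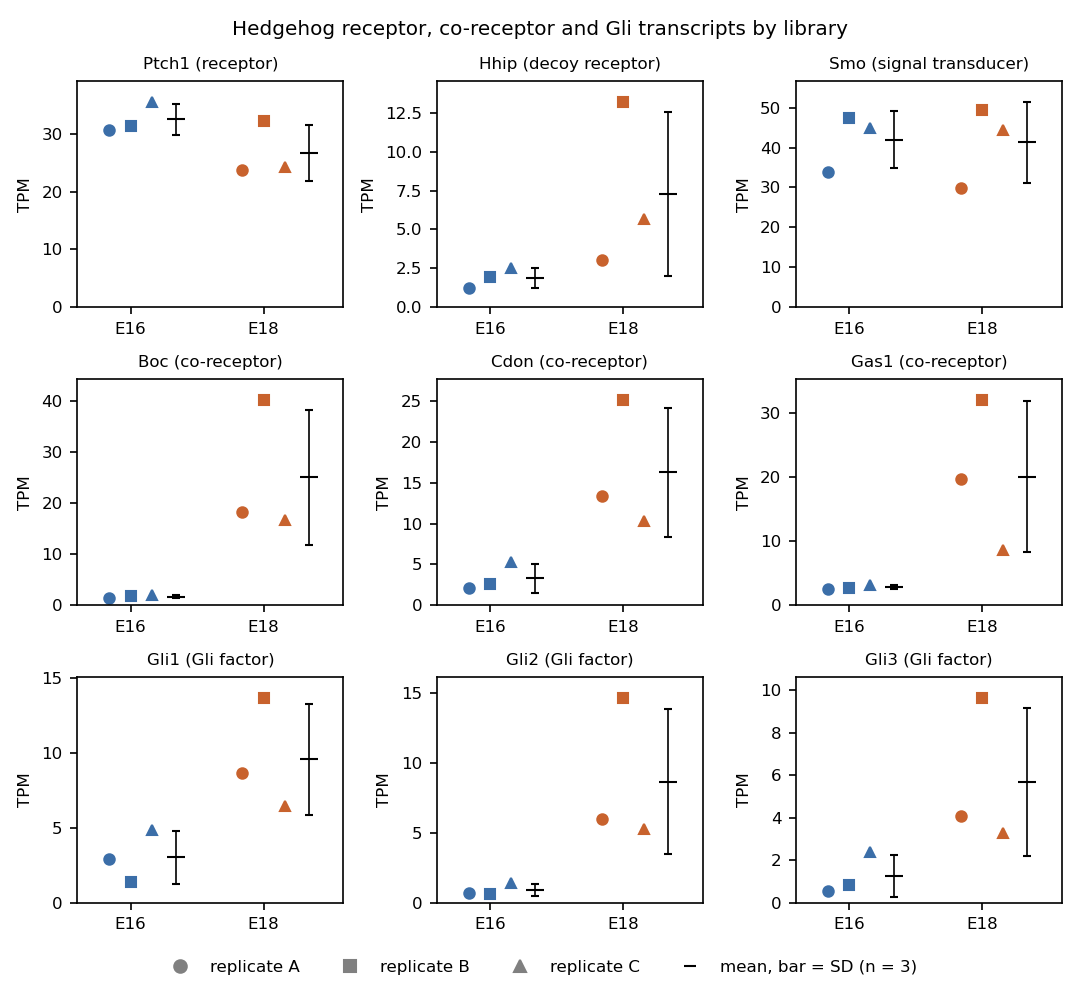
TPM of each of the 9 genes (y axis, linear from 0, a scale of its own per panel) in the 3 E16 and 3 E18 libraries; points are libraries, with symbols for replicates A, B and C, and black bars are the mean and SD. Boc goes from 1.28 to 1.98 TPM at E16 to 16.6 to 40.2 TPM at E18, while the values of Ptch1 and Smo overlap.

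Of the co-receptors, Boc, an immunoglobulin and fibronectin repeat protein that binds the ligand, changed most. Boc (chromosome 16, 44485049 to 44558897, mm10, minus strand) was at 1.28, 1.73 and 1.98 TPM at E16 and 18.2, 40.2 and 16.6 TPM at E18. Every E18 library lay far above every E16 library, and E18 replicate B was the highest of its day. The mean went from 1.66 ± 0.351 to 25 ± 13.2 TPM (SD, n = 3 each), a ratio of means of 15.0. Its log2 difference was 3.18 ± 0.37 (SE; limma adjusted p = 0.0273), the 46th largest of 17824 genes. The values rest on 39 to 57 recovered reads per library at E16 and 357 to 818 at E18.

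Gas1, a membrane-anchored co-receptor, rose as well. It lies on chromosome 13 (60174405 to 60177365, minus strand) and was at 2.57, 2.64 and 3.13 TPM at E16. The E18 libraries gave 19.7, 32.1 and 8.56 TPM. The E16 libraries lay close together, whereas the E18 libraries were spread, with replicate C lowest. The log2 difference was 2.31 ± 0.45 (SE, n = 3 each; limma adjusted p = 0.0432). Exons of the opposite-strand gene Gm48488 lie over 19.9% of Gas1's exon length, and the strand setting of the counting is not given in the sources used here, so reads of Gas1 and Gm48488 cannot be told apart there.

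Cdon, the relative of Boc, was at 2.03, 2.52 and 5.26 TPM at E16 and 13.4, 25.2 and 10.3 TPM at E18. It lies on chromosome 9 (35421128 to 35507652, plus strand). The days did not overlap, and the difference of 2.0 ± 0.42 just missed the threshold (limma adjusted p = 0.0507). Together the 3 co-receptors summed to 5.89, 6.89 and 10.4 TPM at E16 and to 51.3, 97.6 and 35.4 TPM at E18. Boc made up 19.1% to 25.1% of that sum at E16 and 35.4% to 46.8% at E18. This share is a ratio within a library, so it does not depend on how libraries were scaled; the shift was not tested.

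Among the Gli factors, Gli2 rose, and it entered the test through its E18 values. With no filter on low values it was not called (limma adjusted p = 0.102), and neither was any other of the 29216 genes in that fit. Gli2 (chromosome 1, 118834132 to 119053619, minus strand), whose upstream sequence carries the GLI core shown above, was at 0.704, 0.614 and 1.42 TPM at E16. The E18 libraries gave 6.04, 14.7 and 5.32 TPM. All E18 values exceeded all E16 values, and the E18 spread comes mostly from replicate B. The log2 difference was 2.24 ± 0.43 (SE, n = 3 each; limma adjusted p = 0.0427). On 28 to 63 recovered reads per E16 library, its E16 level is coarse.

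Gli3 (chromosome 13, 15463235 to 15730026, plus strand) was at 0.535, 0.848 and 2.38 TPM at E16 and 4.06, 9.65 and 3.27 TPM at E18. E16 replicate C came close to the lowest E18 library. Its difference of 1.53 ± 0.48 did not pass (limma adjusted p = 0.124). Gli1 (chromosome 10, 127329882 to 127341974, minus strand), both a Gli factor and a target, was at 2.9, 1.36 and 4.88 TPM at E16 and at 8.66, 13.7 and 6.45 TPM at E18. The days did not overlap, and the difference of 1.43 ± 0.43 did not pass (limma adjusted p = 0.111). Opposite-strand exons of Arhgap9 and Gm47200 lie over 6.55% of Gli1's exon length.

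Shares of the Gli transcripts were taken within each library. Gli1 held the largest share of the summed Gli TPM in each E16 library, at 70.1%, 48.1% and 56.2% in replicates A, B and C, and 46.2%, 36.0% and 42.9% at E18. The share of Gli2 was 17.0%, 21.8% and 16.3% at E16 and 32.2%, 38.6% and 35.4% at E18. Neither gene's shares overlapped between the days, and in E18 replicate B Gli2 held slightly more than Gli1. Gli3 held 12.9% to 30.1% at E16 and 21.7% to 25.4% at E18, so its shares overlapped. No test was made of these shares.

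**Figure D2:**
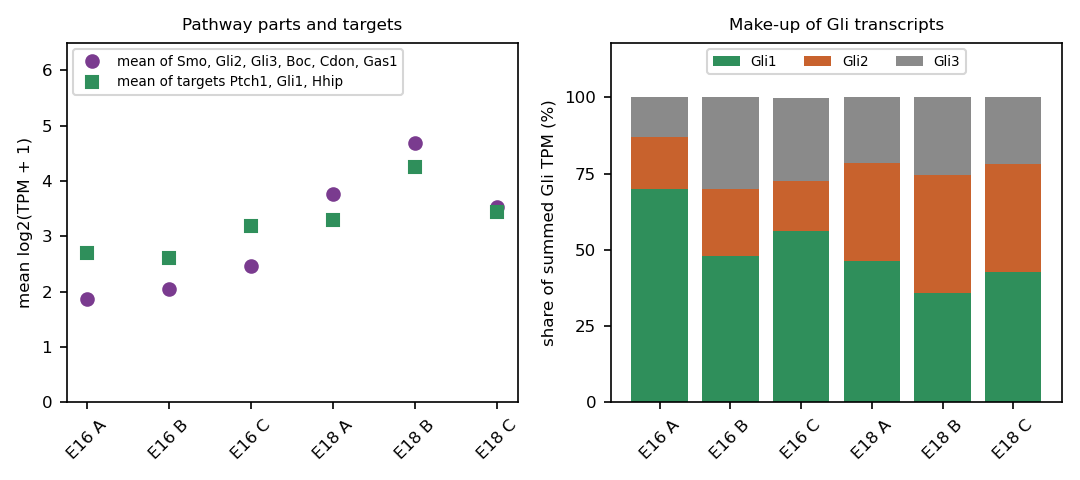
Left, mean log2(TPM + 1) per library of the 6 pathway parts (circles) and of the 3 targets (squares); right, percent of the summed Gli TPM held by Gli1, Gli2 and Gli3 in each library. The parts lie below the targets in the 3 E16 libraries and above them in the 3 E18 libraries, and the share of Gli2 is 16.3% to 21.8% at E16 and 32.2% to 38.6% at E18.

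Ptch1 and Smo had the highest mean TPM of the 9 genes on both days, and their values overlapped between the days. In E18 replicate B, Boc (40.2 TPM) lay above Ptch1 (32.3 TPM). Ptch1 (chromosome 13, 63508328 to 63573598, minus strand) was at 30.6, 31.4 and 35.5 TPM at E16 and 23.7, 32.3 and 24.2 TPM at E18. E18 replicate B lay within the E16 range and the other E18 libraries below it. The log2 difference of −0.28 ± 0.17 did not pass (limma adjusted p = 0.406), and its 95% interval runs from −0.68 to 0.11, or 0.625 to 1.08 as a fold of TPM + 1. Smo (chromosome 6, 29735503 to 29761365, plus strand), shown above with no GLI core upstream, was at 33.8, 47.3 and 44.9 TPM at E16 and at 29.9, 49.4 and 44.5 TPM at E18. The difference of −0.04 ± 0.22 has an interval from −0.57 to 0.49, or 0.674 to 1.40 as a fold (limma adjusted p = 0.948). A change of either gene as large as that of Boc lies outside its interval, while changes up to the bounds given lie within it. These values are well counted, with 743 to 3262 recovered reads per library.

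Hhip, which binds ligand without passing on the signal, is the third target. It lies on chromosome 8 (79965851 to 80058006, minus strand) and was at 1.23, 1.92 and 2.5 TPM at E16. The E18 libraries gave 3.02, 13.2 and 5.66 TPM. The lowest E18 library lay only a little above the highest E16 library. The difference of 1.35 ± 0.49 did not pass (limma adjusted p = 0.175). None of the 3 targets passed. The ratio of Ptch1 to Gli1 TPM was 7.27 to 23.1 at E16 and 2.36 to 3.76 at E18, and that of Ptch1 to Hhip 14.2 to 24.9 and 2.44 to 7.83. The ratio of Ptch1 to Smo overlapped, at 0.664 to 0.904 and 0.545 to 0.79.

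Set against each other, the parts Smo, Gli2, Gli3, Boc, Cdon and Gas1 averaged 2.13 ± 0.314 on the log2(TPM + 1) scale at E16, and 3.99 ± 0.618 by E18 (SD, n = 3). The targets Ptch1, Gli1 and Hhip had 2.83 ± 0.313 and 3.66 ± 0.517. Parts minus targets was −0.84, −0.55 and −0.72 at E16 and 0.46, 0.44 and 0.09 at E18. The difference between the days was 1.04. As a score over chosen genes, of which Gli2 and Gli3 passed the filter through E18, it was given no test and is a description only. Ptch1 weighs on the target mean and Smo on the mean of the parts: without them the means changed by 1.39 for the targets and 2.25 for the parts.

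**Figure D3:**
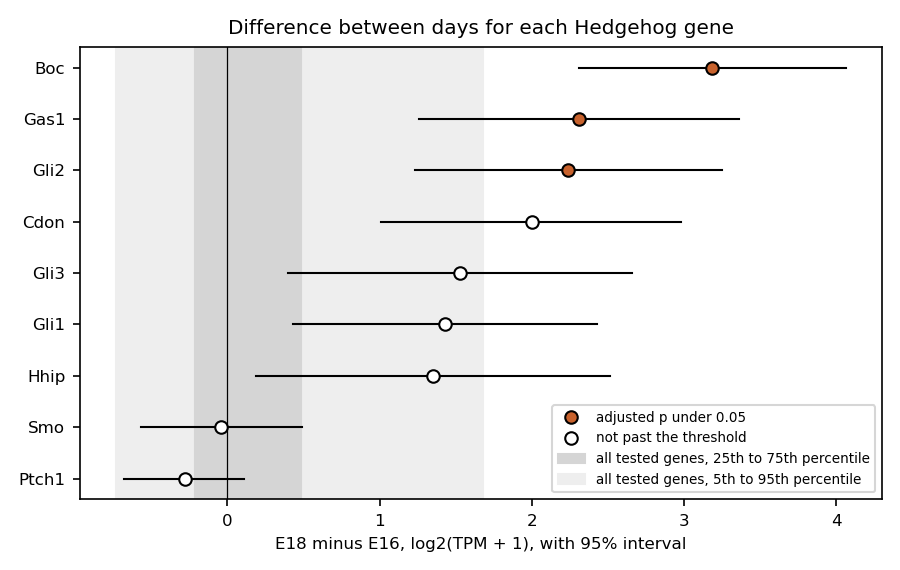
Difference between E18 and E16 in log2(TPM + 1) for each of the 9 genes (points) with its 95% interval (lines); filled points passed limma adjusted p under 0.05, and grey bands give the middle 50% and 90% of all tested genes. Boc, Gas1 and Gli2 are filled, and the intervals of Smo and Ptch1 include 0.

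The order of levels differed between the days. At E16 Smo (mean 42.0 TPM) and Ptch1 (32.5 TPM) stood apart from all others, of which Cdon was highest at 3.27 TPM and Gli2 lowest at 0.911 TPM. Cdon, Gli1 and Gas1 overlapped as neighbours in that order, as did Hhip, Boc, Gli3 and Gli2. At E18 Smo (41.3 TPM) and Ptch1 (26.7 TPM) were followed by Boc (25 TPM), Gas1 (20.1 TPM), Cdon (16.3 TPM), Gli1 (9.59 TPM), Gli2 (8.68 TPM), Hhip (7.30 TPM) and Gli3 (5.66 TPM). Each neighbouring pair overlapped in its library values at E18. Ptch1 was at 3.42 to 5.2 times the summed co-receptor TPM at E16 and at 0.331 to 0.684 times at E18.

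The library with the most mesenchymal marker RNA of its day was also the highest for most of the 9 genes. E18 replicate B was the highest E18 library for 9 of 9, and E16 replicate C the highest E16 library for 8 of 9, the exception being Smo. Ptch1 and Smo, whose values overlapped between the days, were thus also highest in E18 replicate B. The share of all tested genes with these orders was not taken, so the counts are a description only. The mean log2(TPM + 1) of the 10 mesenchymal markers was 2.40 higher at E18, with 2.80 to 3.76 in the E16 libraries and 5.14 to 6.31 in the E18 libraries. As point values, the difference of Boc was larger than that, and those of the other 8 genes were smaller. The 95% intervals of all but Ptch1 and Smo include 2.40. They run from 2.31 to 4.06 for Boc, 1.26 to 3.36 for Gas1 and 1.23 to 3.25 for Gli2, on a scale that understates changes of low genes. With this marker mean as a covariate the day difference was 1.31 for Boc, 0.31 for Gas1, 0.03 for Gli2, −0.45 for Cdon, −0.55 for Gli1, −1.01 for Hhip, −1.19 for Gli3, −1.04 for Ptch1 and −0.77 for Smo, and none of the 9 was called. The marker mean separates the days completely, so its part and that of the day cannot be told apart. Mesothelial markers, summing to 13.1 to 15.1 TPM at E16 and 52.2 to 90.2 TPM at E18 with 3 of 4 called higher, moved the same way, and their part in the result was not tested.

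Hedgehog ligands were scarce in these libraries. Shh had 0 reads in each of the 6 libraries, which allows up to 0.154 to 0.239 TPM per library (3 reads, counting error only). Dhh had 2 recovered reads in all. Ihh was at 0.721, 1.48 and 0.304 TPM at E16 and 0.223, 0 and 0.297 TPM at E18, from 51 and 8 reads in all. Ihh was under the filter and untested; its highest value was in E16 replicate B, the library with the most hepatocyte marker RNA. The part of that in the Ihh values was not tested.

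Beyond the 9 genes, 64 others of the pathway were listed by role, and 55 of them were tested. Called higher were 3 of the 55, a share near the 3.08% of all genes tested, and called lower 0, where the share of all genes is 0.387%. The median difference was 0.30, against 0.07 over all genes. All E18 values lay above all E16 values for 22 of the 55 and below them for 1, the arrestin gene Arrb1 (257, 338 and 334 TPM at E16 and 232, 208 and 255 TPM at E18), named after its values were seen. Over all genes tested these shares are 18.4% and 8.05%. Some of the 55 fell below 1 TPM in E16 libraries and passed the filter through E18. Scube3 (1.03, 0.392 and 1.83 TPM at E16) and Gpr161 (1.26, 0.389 and 0.399 TPM at E16) are examples. The counts and the median over the 55 are therefore a description only. In ligand processing and release, 2 of 8 rose: the glypicans Gpc6 (1.76 ± 0.35, limma adjusted p = 0.0468) and Gpc4 (0.89 ± 0.16, limma adjusted p = 0.0402). The secreted protein gene Scube3 was at 1.08 ± 0.723 and 5.01 ± 3.33 TPM (SD, n = 3) and did not pass. Of 7 tested genes reported to respond to Hedgehog in mesenchyme, Bmp4 rose, by 2.17 ± 0.30 (limma adjusted p = 0.0307). Nr2f2, a nuclear receptor gene, had 5.02 ± 3.26 TPM on average at E16 and 24.0 ± 11.3 TPM by E18 (SD, n = 3; limma adjusted p = 0.0551). The forkhead gene Foxf1 had 3.78 ± 2.41 and 11.8 ± 5.62 TPM and did not pass either (limma adjusted p = 0.15).

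Of the intracellular machinery, 10 regulators of Smo, 15 of Gli and 15 cilium genes were tested, with median differences of 0.16, 0.16 and 0.30. By limma 0 of them were called, which is near the 3.47% of all genes called in either direction. Sufu, which restrains Gli proteins, was at 21.4 ± 0.774 and 23.8 ± 3.61 TPM, and the kinesin Kif7 at 4.87 ± 1.58 and 7.09 ± 2.22 TPM (SD, n = 3). The largest differences by role were those of Evc (0.70) and Iqce (0.69), which act with Smo at the cilium base, Gpr161 (1.34) and Tulp3 (0.97), which hold the pathway back, and the cilium genes B9d1 (1.27) and Ift80 (0.89). Limma adjusted p for these 6 lay between 0.0586 (Ift80) and 0.343 (Evc). Foxf2 had 1 read in all and Foxl1 29, and both were under the filter.

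**Figure D4:**
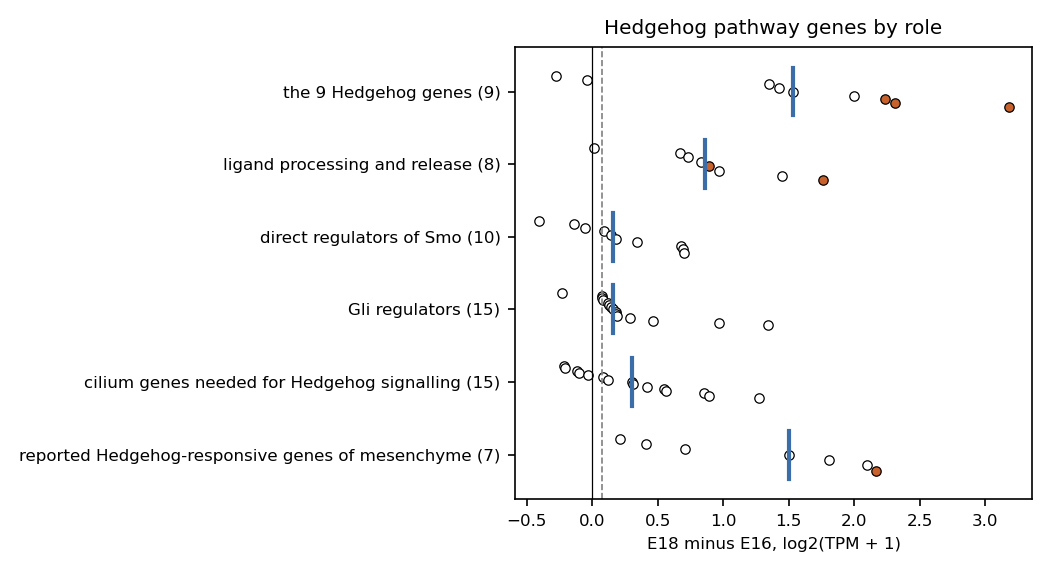
Difference between E18 and E16 in log2(TPM + 1) for the 9 Hedgehog genes and for 55 other pathway genes by role, with the number tested in parentheses; filled points passed limma adjusted p under 0.05, blue bars are medians, and the dashed line is the median of all genes, 0.07. Regulators of Smo and Gli have medians of 0.16, close to that line.

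For each of the 9, the genes with the most similar profile over the 6 libraries were taken from 9476 candidates by Pearson r of log2(TPM + 1), as a description in which the points share libraries and day. For Boc they were Thbs4, Tmem50b and Msrb3 (r from 0.9986 to 0.9994), for Gas1 Ypel5, Ier3 and Hdac5 (0.9973 to 0.9984), and for Cdon Adcy2, Sdc3 and Itpripl2 (0.9991 to 0.9994). For Gli2 they were Adam12, Lamb1 and Pcolce (0.9987 to 0.9993), and for Gli3 Dlg5, Sertad1 and Mark1 (0.996 to 0.9994). For Gli1 they were Mir493, Atrnl1 and Rasl11b (0.9903 to 0.9944), and for Hhip Bmpr2, Dnmt3a and Atp10a (0.9906 to 0.9976). For Ptch1 they were Sdc1, Tbcel and Fgd6 (0.9743 to 0.9776), and for Smo Dda1, Gbf1 and Alg14 (0.9716 to 0.9876). Among the 9 themselves, Gli2 and Boc had r of 0.987 and Gli3 and Cdon 0.987, whereas Ptch1 had r of −0.483 with Boc and 0.533 with Smo. In the order of candidates for Gli2, Boc would rank 158, so many genes share its profile over these 6 points.

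Two-sided exact permutation of the 6 libraries gave p = 0.1, the smallest that 3 against 3 allows, for the 7 genes whose days did not overlap, 0.3 for Ptch1 and 0.8 for Smo. The calls of Boc, Gas1 and Gli2 were each lost when any of 5 libraries was left out (limma adjusted p from 0.0584 to 0.133), and kept without E18 replicate C. None of the 9 was called with no filter on low values, with the hepatocyte score as a covariate or with the letter as a block, and Boc alone was called with a pseudocount of 5 or quantile normalization. The hepatocyte score, the mean log2(TPM + 1) of the 10 hepatocyte markers, was 5.9 to 7.74 at E16 and 3.47 to 4.56 at E18. Like the mesenchymal mean, it separates the days completely, so its part and that of the day cannot be told apart. With it the differences were 3.43 for Boc, 2.08 for Gli2, 2.05 for Hhip, 1.98 for Gas1 and 1.7 for Cdon. For Gli3, Smo, Gli1 and Ptch1 they were 1.32, 0.57, 0.36 and −0.26. Without both B libraries 0 of 9 were called, at differences of 2.82 for Boc, 1.87 for Gas1 and 1.72 for Gli2. On recovered reads, limma's voom called 6 of 9, adding Cdon, Gli1 and Gli3. With array weights 5 were called, adding Cdon as higher and Ptch1 as lower (−0.47, limma adjusted p = 0.0269). Those weights were 3.756 for E16 replicate C and 3.623 for E18 replicate A, against 0.4844 to 0.6048 for the other libraries. The weighted fit therefore rests mostly on 1 library per day.

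**Figure D5:**
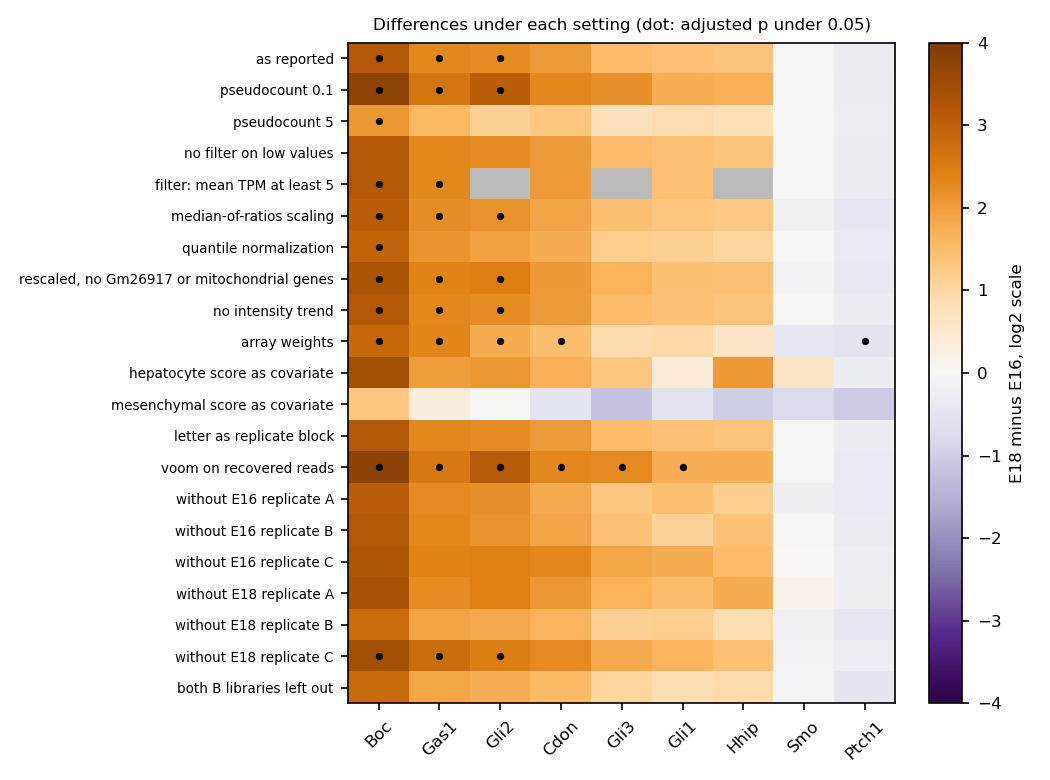
Difference between E18 and E16 on the log2 scale (colour) for each of the 9 genes (columns) under each setting (rows); dots mark adjusted p under 0.05 and grey cells are genes under that setting's filter. Boc is positive in every row, at 1.31 to 3.77, whereas Smo lies between −0.77 and 0.57.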

How the data were processed

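The authors deposited a table of TPM for 54532 genes, with 1 column for each of the 6 libraries. Tools listed in the submitters' processing notes, with neither role nor order, are HTSeq 0.5.4p3, Bowtie, HISAT2 2.1.0 and FastQC 0.11.7, and the build is mm10. Not given in the sources used here were the annotation release, the strand setting of the counting and the formula for TPM. A stranded kit for total RNA was used, per the labels' protocols.

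Symbols were matched through Ensembl identifiers (all 132 listed symbols matched), and gene models came from GENCODE M21 on GRCm38, the assembly of mm10. The 9 genes and all lists were chosen with earlier results of these data known. Genes at 1 TPM or more in at least 3 libraries were tested, 17824 in all. The test was that of limma 3.58.1 (R 4.3.3), with a variance trend and no block, applied to log2(TPM + 1), and p-values were adjusted over all these genes by Benjamini-Hochberg. Dividing TPM by the value of 1 read gave whole reads within 0.05 for 96.8% to 97.1% of values above 0, depending on the library. The steps were tested on simulated data, for the limma fit with noise drawn independently for each gene. Shifts shared by many genes of a library were not simulated there, so that check does not cover them.

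The text names all 9 genes and, of the other pathway genes, the ligands, Sufu, Kif7, Foxf1, Foxf2, Foxl1, called genes, and the 2 with the largest difference per role; one item the rule names is not reported here. Of the remaining marker lists, megakaryocyte markers summed to 18.0 to 66.6 TPM (0 of 3 tested called) and cholangiocyte markers to 9.89 to 37.4 TPM (1 of 3 tested called higher, of 6 listed). Leukocyte markers summed to 43.0 to 116 TPM (1 of 3 tested called higher, of 6 listed) and Schwann cell markers to 0.814 to 5.31 TPM (1 of 3 tested, 0 called). Of the tested cholangiocyte markers, Krt19 (called) and Krt7 were higher in every E18 library, and Cdh1 was lower in every one. Alternatives were other pseudocounts, filters, scalings, weights and covariates, the letter as a block, voom and left-out libraries. Figures were drawn with Matplotlib 3.10.9.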

Additional observations from a re-analysis of the deposited data

How the results depend on the processing

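All alternatives were planned. The count over all tested genes, 618, was 347 with a pseudocount of 5, 399 with quantile normalization, 363 with a mean of at least 5 TPM required, 4316 with array weights and 1465 with voom on recovered reads. It was 0 without a filter, with the hepatocyte or the mesenchymal score as covariate, with the letter as a replicate block, and without both B libraries; limma gave 4571, 1820, 627, 3195 and 2846 genes at unadjusted p under 0.05 in these fits, in that order. Calls split into 549 higher and 69 lower, against 314 and 85 with quantile normalization, which moved the median difference of all genes from 0.07 to −0.08; the signs of all 9 Hedgehog genes were kept there. Leaving out 1 library gave 0 to 664. The count was 664 when E18 replicate C was dropped, 55 when E16 replicate B was dropped, and 0 when any of the other 4 was dropped (2765 to 3438 genes at unadjusted p under 0.05).

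Of the 9 Hedgehog genes, 3 were called. The count was 1 (Boc) with a pseudocount of 5 or quantile normalization, 5 with array weights, 6 with voom, and 0 in the same 5 fits that called no gene at all. Leaving out 1 library gave 0 to 3. Of the other pathway genes, 3 were called, 1 with the mean filter, 10 with array weights, 7 with voom, 0 in those 5 fits, and 0 to 1 when 1 library was left out. The labels do not say that the letters pair libraries, so the main fit had no block. Deviations of same-lettered libraries from their day means had r of 0.102, −0.139 and −0.117, and those of other-lettered libraries −0.147 to 0.22. With 3 libraries per day such values cannot decide whether the letters pair them. The replicate block left the difference of Boc at 3.18 (limma adjusted p = 0.082).

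Parts minus targets changed by 1.26 with a pseudocount of 0.1 and 0.69 with a pseudocount of 5, against 1.04. Smo turned positive with the hepatocyte score (0.57) and without E16 replicate B (0.05), E16 replicate C (0.01) or E18 replicate A (0.17); leaving out 1 library gave −0.19 to 0.17. With the mesenchymal score Cdon (−0.45), Gli1 (−0.55), Hhip (−1.01) and Gli3 (−1.19) turned negative; the causes were not tested. A gene of 1 kb at 1 TPM rests on 4.41 to 6.83 reads, which limits the 7 genes other than Ptch1 and Smo at E16, Gli2 most with 28 to 63 reads.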
